A study of Mus musculus with 12 samples.

Results

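The genes described here are 32 neuronal and synaptic vesicle genes, followed across 12 RNA-sequencing libraries of mouse primary cortical astrocytes. They were picked by symbol, as a list of neuron markers and parts of the release machinery, and not by a threshold on a measured value. The list was chosen with earlier results of these data known, so counts of members called describe it and are no independent test. All 32 were among the 25923 genes listed for the overexpression experiment, and 30 were among the 24509 genes listed for the knockdown experiment, where Snap25 and Htr5a had no entry. The libraries came from wild-type C57BL/6J astrocytes taken at postnatal day 3, transduced, and kept for 1 week without serum. Cells given a virus for GADD45G (libraries labelled GADD45G) were set against cells given GFP. Cells given a short hairpin RNA against Gadd45g (libraries labelled shGADD45G) were set against control cells labelled shLuc. Each of the 4 groups had 3 libraries. The labels used here give neither the promoter of the viral constructs nor whether the replicates were separate cultures, so p-values here measure only how far these libraries spread, and that spread may be technical.

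Neurons release transmitter by fusing synaptic vesicles with the plasma membrane, a step driven by the SNARE proteins VAMP2 on the vesicle and syntaxin and SNAP-25 on the target membrane, with synaptotagmin as the calcium sensor. Peptides and granins leave the cell by dense-core vesicles, which astrocytes also hold. Astrocyte cultures from newborn cortex can carry progenitors and young neurons besides astrocytes, and several of the genes below, such as Map2, Vamp2, Uchl1 and Ncam1, are also transcribed in glia.

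Total counts ran from 17810863 to 18777231 in the GADD45G libraries, from 19480657 to 20756461 in the GFP libraries, from 15626655 to 18282315 in the shGADD45G libraries and from 16179509 to 18970492 in the shLuc libraries. Gadd45g itself had 150, 144 and 139 CPM (read counts corrected for library size) in the libraries labelled GADD45G, against 121, 133 and 134 CPM in GFP libraries (log2 fold change 0.15 ± 0.054 SE, adjusted p = 0.0298, edgeR's quasi-likelihood test). The libraries labelled shGADD45G had 67.2, 147 and 122 CPM, against 140, 151 and 129 CPM in shLuc libraries (log2 fold change -0.32 ± 0.223 SE, adjusted p = 0.408). Replicate 2 of shGADD45G lay within the range of its controls for the targeted gene and replicate 3 just below it, and the group names below stand for the labels. The labels do not say whether the viral GADD45G sequence would be counted in the mouse gene, so the value in GADD45G libraries is a limited check of overexpression. Replicates of shGADD45G differed by a chi-square of 20.5 to 41 per degree of freedom, where 1 is counting error, and those of GADD45G by 4.23 to 18.8, against 2.11 to 3.15 in GFP and 2.23 to 2.98 in shLuc. Transcripts of 3 lung and blood genes (Sftpc, Hbb-bs and Hba-a1) summed to 741 CPM in replicate 3 of GADD45G and to 0 in the other two. Replicate 3 of GADD45G therefore stood apart, and the 3 shGADD45G libraries differed among themselves, with replicate 1 the lowest for Gadd45g. Counts that change without a library are given beside the results. Astrocyte markers summed to 5480 to 6190 CPM in GADD45G, 4620 to 4680 CPM in GFP, 4730 to 5370 CPM in shGADD45G and 6290 to 6330 CPM in shLuc libraries, with 12 of 12 markers listed. Levels and tests are on each experiment's own scale unless the tables are said to be scaled together.

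In the overexpression experiment, 27 of the 31 members tested were lower in GADD45G than in GFP libraries at an adjusted p under 0.05, and 1, the granin Scg2, was higher. Of all 15418 genes tested, 29.7% were called lower and 30.6% higher, so 87.1% of the members tested were lower against a background of 29.7%. Since the list was not blind to these data, that contrast describes the list only. Dcx, Elavl4, Snap25, Sv2b, Sv2c and Htr5a had under 10 counts in each GADD45G library and passed the filter through the GFP libraries alone. Their calls are tied to that filter. The median log2 fold change of the members was -1.51, against 0.01 over all genes, and 20 of the 28 calls exceeded 2-fold. The members not called were Gap43, Sv2a and L1cam, and Rbfox3 had too few counts to be tested. In the knockdown experiment 3 of 23 members tested were lower in shGADD45G than in shLuc libraries (Mapt, Stmn3 and Gria1), and none was higher, against 5.27% and 5.15% of all 14914 genes. At an unadjusted p under 0.05 there were 7 of 23, a threshold at which the share of all genes was not counted. DESeq2 called 4 members lower and 0 higher, with 952 lower and 920 higher over all genes. Without replicate 1 of shGADD45G, 4 members were lower, with Syp added at a log2 fold change of -1.15, and 1, Syn2, was higher at 0.52. Without replicate 3 of GADD45G, 27 members were lower and 2 higher, the second being Sv2a at 0.36 (adjusted p = 0.0281).

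**Figure D1:**
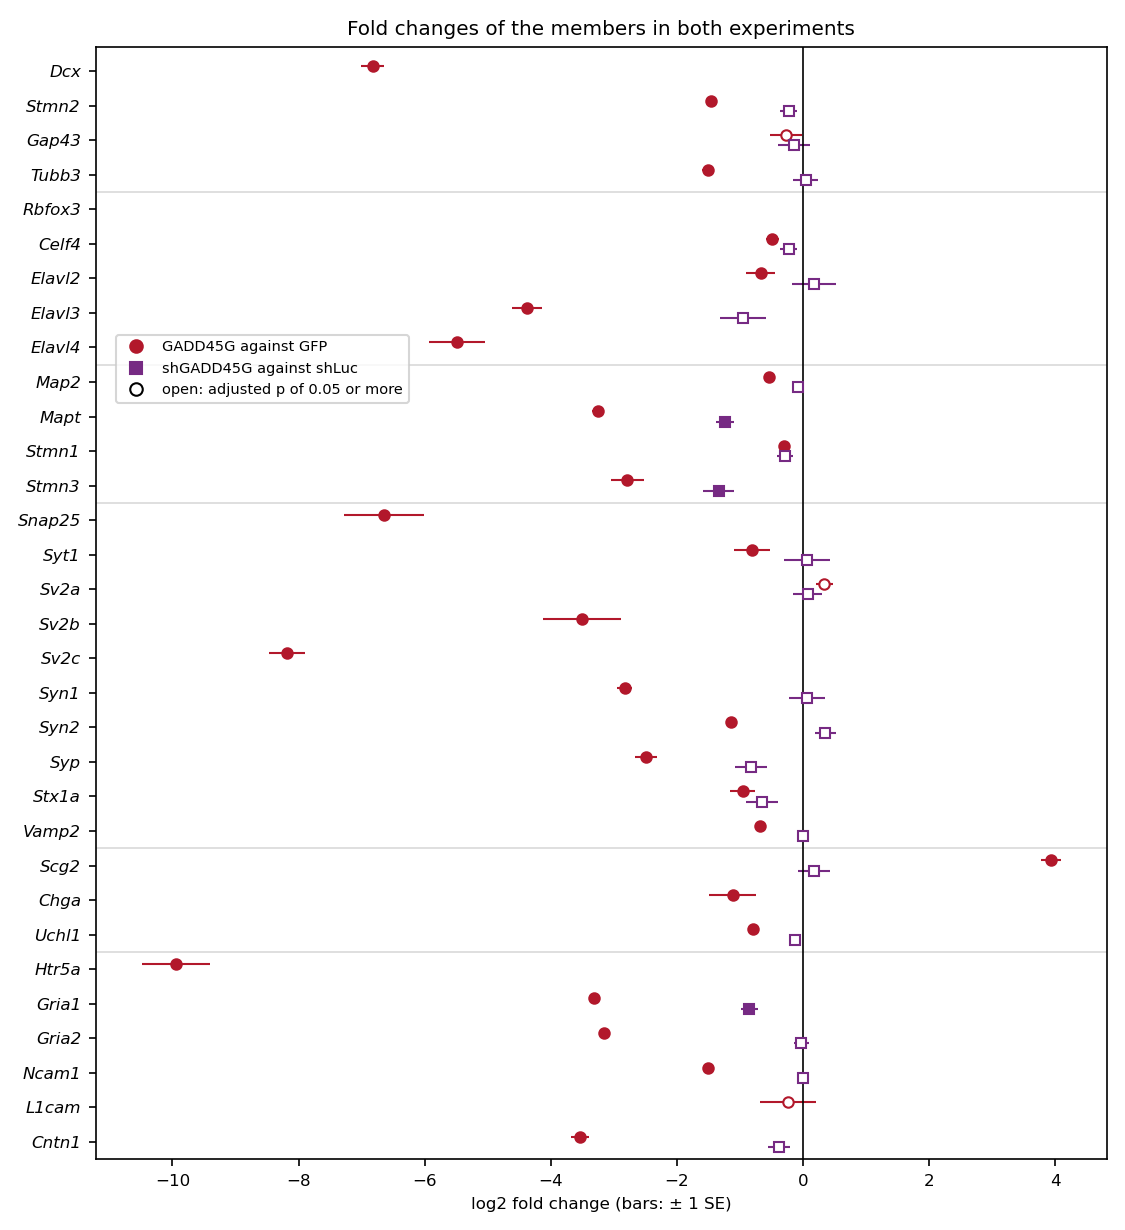
Log2 fold change (x axis, bars ± 1 SE) of each member (rows, grouped by role) in GADD45G against GFP (circles) and shGADD45G against shLuc (squares); open symbols had an adjusted p of 0.05 or more and a missing symbol was not tested. Of the circles, 27 filled ones lie left of 0 and 1, Scg2, lies right of it, whereas 3 squares are filled, all left of 0.

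Other cell types moved with the overexpression comparison. Oligodendrocyte lineage markers summed to 117 to 132 CPM in GADD45G libraries, with Mobp at 0, against 585 to 599 CPM in GFP libraries, and 3 of 7 tested rose and 2 fell. Proliferation markers summed to 32.6 to 45.5 CPM in GADD45G and 66.6 to 71.4 CPM in GFP libraries, with 4 of 5 lower. Neural progenitor markers summed to 9460 to 10700 CPM in GADD45G libraries, with Gsx1 at 0, against 5840 to 5900 CPM in GFP libraries (3 of 7 higher, 4 lower), and endothelial markers to 13.8 to 63.7 CPM against 135 to 143 CPM in GFP libraries, with Cldn5 at 0 there. Of 3 endothelial markers tested, 2 were higher (Flt1 and Vwf) and 1, Kdr, was lower, at 13 CPM in GADD45G and 138 CPM in GFP libraries. Flt1 and Vwf varied widely among GADD45G libraries, at 2.42 ± 2.95 and 8.24 ± 11.2 CPM (SD, n = 3 each). In GFP libraries they had 0.377 ± 0.017 and 0.678 ± 0.298 CPM. The median endothelial sum was 13.8 CPM in GADD45G libraries, so 1 library held the high end. Of 12 astrocyte markers, 9 were higher and 2 lower in GADD45G libraries. Over all genes tested, 30.6% were higher and 29.7% lower. In bulk RNA, fewer cells of a type and less RNA per cell cannot be told apart, and the part of these cell types in the members' values was not tested.

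Among the genes of immature neurons and growing axons, 3 of 4 fell in GADD45G libraries, against 29.7% of all genes tested. Their median log2 fold change was -1.49. Dcx, the gene of doublecortin, which binds microtubules in migrating young neurons (ENSMUSG00000031285, mm10 chrX:143855842-143933311, minus strand), had 0.224, 0.436 and 0.166 CPM in GADD45G libraries, against 33.4, 31.9 and 30.9 CPM in GFP libraries. The groups were far apart, with 15 counts over the 3 GADD45G libraries and 1952 over the 3 GFP libraries. Its log2 fold change was -6.83 ± 0.178 (SE, adjusted p = 1.17e-10, edgeR's quasi-likelihood test). In the knockdown experiment Dcx stayed under the count filter, at 0.215, 0.399 and 0.262 CPM in shGADD45G libraries and 0.247, 0.262 and 0.343 CPM in shLuc libraries, so that both groups lay near the GADD45G libraries and the GFP group was the exception among the 4. The sequence upstream of Dcx is shown because the gene had the largest fall among the members of this role; it runs up to the gene start of the deposited table (GRCm38.p6 chrX:143933312-143933469, minus strand, RefSeq), with a match to TATAAA in capitals.
Dcx: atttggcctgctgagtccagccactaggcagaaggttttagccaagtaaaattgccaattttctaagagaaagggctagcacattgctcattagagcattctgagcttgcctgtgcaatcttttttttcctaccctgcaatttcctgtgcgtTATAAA

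Stmn2, a tubulin-binding protein of growth cones, had 65.1, 66.2 and 59.1 CPM in GADD45G libraries, against 178, 173 and 172 CPM in GFP libraries (log2 fold change -1.46 ± 0.055 SE, adjusted p = 1.95e-09). Tubb3, the neuronal class III beta-tubulin, had 9.16, 8.00 and 8.76 CPM in GADD45G libraries, against 23.8, 23.8 and 26.5 CPM in GFP libraries (-1.51 ± 0.092 SE, adjusted p = 1.08e-07). For both genes every GADD45G library lay below every GFP library. Gap43, a growth cone phosphoprotein, had 3.19, 3.21 and 2.05 CPM in GADD45G libraries and 2.71, 3.87 and 3.62 CPM in GFP libraries. Its groups overlapped (log2 fold change -0.27 ± 0.248 SE, adjusted p = 0.369), and Gap43 was among the few members without a high GFP group. In the knockdown experiment none of the 3 members tested passed. Stmn2 had 54.0, 76.3 and 84.7 CPM in shGADD45G libraries and 85.1, 82.8 and 84.2 CPM in shLuc libraries, with replicate 1 of shGADD45G the lowest (-0.23 ± 0.141 SE, adjusted p = 0.344). The log2 fold change in shGADD45G was 0.04 ± 0.204 SE for Tubb3 and -0.15 ± 0.252 SE for Gap43.

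Of the neuronal RNA-binding proteins, 4 of 4 tested members were lower in GADD45G libraries, against 29.7% of all genes tested. Their log2 fold changes differed widely, from -5.49 to -0.49, with a median of -2.53. Elavl3 (HuC), which binds AU-rich elements and steers neuronal splicing and mRNA stability, had 0.391, 0.926 and 0.721 CPM in GADD45G libraries, against 15.4, 14.7 and 12.7 CPM in GFP libraries. The difference was -4.38 ± 0.231 on the log2 scale (SE, adjusted p = 3.26e-08). Its paralog Elavl4 (HuD) had 0, 0.163 and 0.277 CPM in GADD45G libraries, against 6.09, 7.12 and 7.48 CPM in GFP libraries (-5.49 ± 0.449 SE, adjusted p = 1.25e-06; -6.28 without replicate 3 of GADD45G). Elavl2 (HuB), which is not restricted to neurons, moved less. It had 2.18, 1.91 and 2.22 CPM in GADD45G libraries and 3.17, 3.97 and 2.93 CPM in GFP libraries (-0.68 ± 0.226 SE, adjusted p = 0.0233), and its call was lost without replicate 2 of GADD45G (adjusted p = 0.06), without replicate 2 of GFP (0.115), with DESeq2 (0.0809), without the count filter (0.055) and with all 12 libraries in one fit (0.0544). Celf4, a regulator of splicing and translation in neurons, had 15.1, 18.8 and 15.6 CPM in GADD45G libraries, against 23.0, 21.9 and 24.6 CPM in GFP libraries, a small difference without overlap (-0.49 ± 0.097 SE, adjusted p = 0.00123). Rbfox3, the splicing factor known as the NeuN antigen of mature neurons, was near the detection limit everywhere. It had 0.279, 0.163 and 0.277 CPM in GADD45G libraries and 0.665, 0.813 and 0.391 CPM in GFP libraries, or 13 counts against 38 counts, and no test was made.

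Under knockdown, 0 of 3 tested RNA-binding members passed. Elavl3 had 0.538, 0.685 and 0.393 CPM in shGADD45G libraries, against 1.05, 1.21 and 0.914 CPM in shLuc libraries. All 3 were lower, but the log2 fold change of -0.96 ± 0.365 had an adjusted p of 0.134. Rbfox3 had no count in any shGADD45G library and 8 counts over the shLuc libraries. This is 2.6-fold lower in shGADD45G when the empty group is set to 3 counts in all and the 8 counts are taken as exact. That ratio was as low as 1.66-fold without replicate 1 of shGADD45G. Ratios against an empty group, here and below, leave out the counting error of the other group. Ratios given with an interval below cover counting error only. Elavl4 had 10 counts in shGADD45G and 4 in shLuc libraries and was not tested.

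The cytoskeletal members split by size of change. Mapt, the gene of the axonal microtubule-associated protein tau (ENSMUSG00000018411, mm10 chr11:104231390-104332090, plus strand), had 6.82, 9.15 and 9.37 CPM in GADD45G libraries, against 78.4, 80.9 and 82.6 CPM in GFP libraries. It fell by 3.25 on the log2 scale (SE 0.089, adjusted p = 1.7e-10). Mapt also fell in the knockdown experiment, with 6.94, 9.07 and 8.84 CPM in shGADD45G libraries, against 19.7, 19.3 and 19.5 CPM in shLuc libraries (-1.24 ± 0.137 SE, adjusted p = 0.00081). The groups did not overlap in either experiment, and the GADD45G and shGADD45G groups reached nearly the same level, 8.44 ± 1.41 CPM and 8.28 ± 1.17 CPM (SD, n = 3 each), on scales set separately. Stmn3, a stathmin of neurons that acts on Golgi and neurite tubulin, showed the same order. Its levels were 2.29, 0.98 and 1.27 CPM in GADD45G libraries, against 10.1, 11.9 and 9.38 CPM in GFP libraries (-2.79 ± 0.263 SE, adjusted p = 4.06e-06). With the hairpins, Stmn3 had 2.91, 1.65 and 1.77 CPM in shGADD45G libraries, against 5.13, 5.30 and 5.71 CPM in shLuc libraries (-1.34 ± 0.250 SE, adjusted p = 0.00875). That call was lost without replicate 3 of shLuc (-1.29, adjusted p = 0.0537).

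Map2, the dendritic microtubule-associated protein, had 170, 174 and 161 CPM in GADD45G libraries, against 254, 242 and 238 CPM in GFP libraries (-0.54 ± 0.049 SE, adjusted p = 3.11e-06). Its levels in the other experiment were 248, 212 and 265 CPM in shGADD45G libraries and 256, 244 and 266 CPM in shLuc libraries, so for Map2 the GADD45G group was the one that stood low (-0.08 ± 0.094 SE in shGADD45G, adjusted p = 0.652). Stmn1, a stathmin of dividing and young cells, had 49.5, 52.9 and 47.4 CPM in GADD45G libraries, against 59.7, 63.5 and 61.6 CPM in GFP libraries (-0.30 ± 0.053 SE, adjusted p = 0.00047). In shGADD45G libraries it had 22.3, 28.4 and 26.8 CPM, against 34.2, 32.3 and 27.8 CPM in shLuc libraries, where the groups overlapped (-0.28 ± 0.125 SE, adjusted p = 0.188). The estimates for Stmn1 were close in both experiments, and only the one with the smaller error was called.

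Of the 10 synaptic vesicle and SNARE members, 9 were called lower in GADD45G libraries and none higher, against 29.7% and 30.6% of all genes tested. Their median was -1.81 on the log2 scale. The SV2 proteins, vesicle glycoproteins that bind synaptotagmin, did not move as a family. Sv2c (ENSMUSG00000051111, mm10 chr13:95954594-96132577, minus strand) had 0, 0.0544 and 0.111 CPM in GADD45G libraries, against 17.3, 18.0 and 18.6 CPM in GFP libraries. That is 3 counts against 1095 counts, a ratio of 325-fold in favour of GFP (95% exact counting interval 111 to 1580); without replicate 3 of GADD45G it was 652-fold (117 to 25800) and without replicate 1 of GADD45G 218-fold (74.4 to 1060). The adjusted p of Sv2c was 1.25e-09. Sv2b had 0, 0.109 and 0.166 CPM in GADD45G libraries, against 0.972, 1.43 and 0.928 CPM in GFP libraries, 5 against 68 counts (-3.51 ± 0.624 SE, adjusted p = 0.000558; -4.19 without replicate 3 of GADD45G). Sv2a, the widespread form, was the other way about. It had 7.49, 8.55 and 7.60 CPM in GADD45G libraries, each above the 6.65, 6.17 and 5.91 CPM of GFP libraries, with a log2 fold change of 0.34 ± 0.135 that missed the threshold (SE, adjusted p = 0.0517).

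The synapsins tether vesicles to actin. Syn1 (ENSMUSG00000037217, mm10 chrX:20860511-20921004, minus strand) had 5.14, 4.08 and 3.49 CPM in GADD45G libraries, against 30.8, 29.1 and 30.6 CPM in GFP libraries (-2.83 ± 0.122 SE, adjusted p = 5.92e-09). Syn2 had 19.5, 17.4 and 19.6 CPM in GADD45G libraries, against 42.1, 40.9 and 41.1 CPM in GFP libraries (-1.14 ± 0.068 SE, adjusted p = 9.71e-08). Syp, the vesicle membrane protein synaptophysin, had 1.40, 1.42 and 1.72 CPM in GADD45G libraries, against 8.03, 8.56 and 8.99 CPM in GFP libraries (-2.49 ± 0.178 SE, adjusted p = 4.02e-07). These vesicle genes did not overlap between the groups, and Syn1 and Syp fell further than Syn2. The sequence upstream of Syn1 is shown for comparison with Scg2 below, since both carry TTCAGCACC, the left arm of the element bound by the repressor REST, and TGACGTCA, the cyclic AMP response element. It lies at GRCm38.p6 chrX:20921005-20921168 (minus strand, RefSeq), with these matches in capitals.
Syn1: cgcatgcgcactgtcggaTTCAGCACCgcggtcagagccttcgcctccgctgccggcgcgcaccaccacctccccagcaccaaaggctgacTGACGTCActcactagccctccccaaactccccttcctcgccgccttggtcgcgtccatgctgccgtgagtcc

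The SNARE genes and the calcium sensor fell as well. Snap25, the target-membrane SNARE of neurons, had 0, 0 and 0.0554 CPM in GADD45G libraries, against 2.30, 3.20 and 1.95 CPM in GFP libraries. This is 1 count against 152 counts, a ratio of 135-fold in favour of GFP (95% exact counting interval 24 to 5390, adjusted p = 4.36e-06). Without replicate 3 of GADD45G, which held that count, the ratio was 30.2-fold with the empty group set to 3 counts in all. It was 89.7-fold (15.9 to 3560) without replicate 2 of GADD45G and 90.8-fold (16.1 to 3610) without replicate 1 of GADD45G. Stx1a, the syntaxin partner, had 2.51, 2.02 and 2.61 CPM in GADD45G libraries, against 4.91, 4.35 and 4.59 CPM in GFP libraries (-0.96 ± 0.199 SE, adjusted p = 0.00161). Vamp2 was the most abundant vesicle member by length-scaled level and changed least among those that fell, with 176, 183 and 164 CPM in GADD45G libraries, against 279, 282 and 283 CPM in GFP libraries (-0.69 ± 0.049 SE, adjusted p = 3.97e-07). Syt1, the fast calcium sensor, had 1.01, 2.02 and 1.5 CPM in GADD45G libraries, against 2.61, 2.63 and 2.74 CPM in GFP libraries (-0.82 ± 0.286 SE, adjusted p = 0.0288). The Syt1 call was lost without replicate 1 of GADD45G (adjusted p = 0.0881), without replicate 1, 2 or 3 of GFP (0.0674, 0.0721 and 0.08), with DESeq2 (0.0767) and without the count filter (0.0633).

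Under knockdown, none of the 7 vesicle and SNARE members tested passed, and their median log2 fold change was 0.06. Syp came nearest, with 4.74, 2.91 and 2.49 CPM in shGADD45G libraries, each below the 6.74, 5.72 and 5.66 CPM of shLuc libraries (-0.82 ± 0.250 SE, adjusted p = 0.0656). It passed with DESeq2 (0.0391), without the count filter (0.0321), with all 12 libraries in one fit (0.0178) and without replicate 1 of shGADD45G (-1.15, 0.00392). Stx1a had 1.99, 2.62 and 1.57 CPM in shGADD45G libraries and 3.09, 3.46 and 3.26 CPM in shLuc libraries, without overlap (-0.66 ± 0.253 SE, adjusted p = 0.137). Syn1 had 1.94, 2.40 and 1.77 CPM in shGADD45G libraries and 1.54, 2.46 and 1.83 CPM in shLuc libraries, which overlapped (0.06 ± 0.283 SE, adjusted p = 0.927). Syn2 had 14.9, 19.3 and 24.4 CPM in shGADD45G libraries and 15.6, 14.9 and 15.3 CPM in shLuc libraries (0.35 ± 0.168 SE, adjusted p = 0.224), with replicate 1 of shGADD45G at the control level, and it was called without that library (0.52, adjusted p = 0.0169). The remaining members tested were Vamp2 (0.01 ± 0.088), Sv2a (0.07 ± 0.232) and Syt1 (0.07 ± 0.361), with log2 fold changes ± SE smaller than their errors. Sv2c had 5 counts in shGADD45G and 8 in shLuc libraries and Sv2b 3 and 4 counts, too few to test. In shGADD45G libraries 7 of 8 microglial markers were also lower, with a sum of 14.4 to 41.4 CPM, against 140 to 165 CPM in shLuc libraries, and 5 of 12 astrocyte markers were lower; their part in the members' values was not tested. Over all genes tested under knockdown, 5.27% were lower. The microglial sum was 13.9 to 170 CPM in GADD45G and 39.9 to 42.8 CPM in GFP libraries, and 1 of 8 markers was lower in GADD45G. The median microglial sum in GADD45G libraries was 16.2 CPM, so 1 library held the high end.

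In the GENCODE M21 annotation, 11 of the 32 members share exon bases with another gene, and for 2 this exceeds 10% of their exon bases, both with a gene on the opposite strand: Syp (16.8%, Gm14703) and Uchl1 (18.1%, Uchl1os). Reads there cannot be assigned with certainty, since the strand setting of the counts is unknown.

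**Figure D2:**
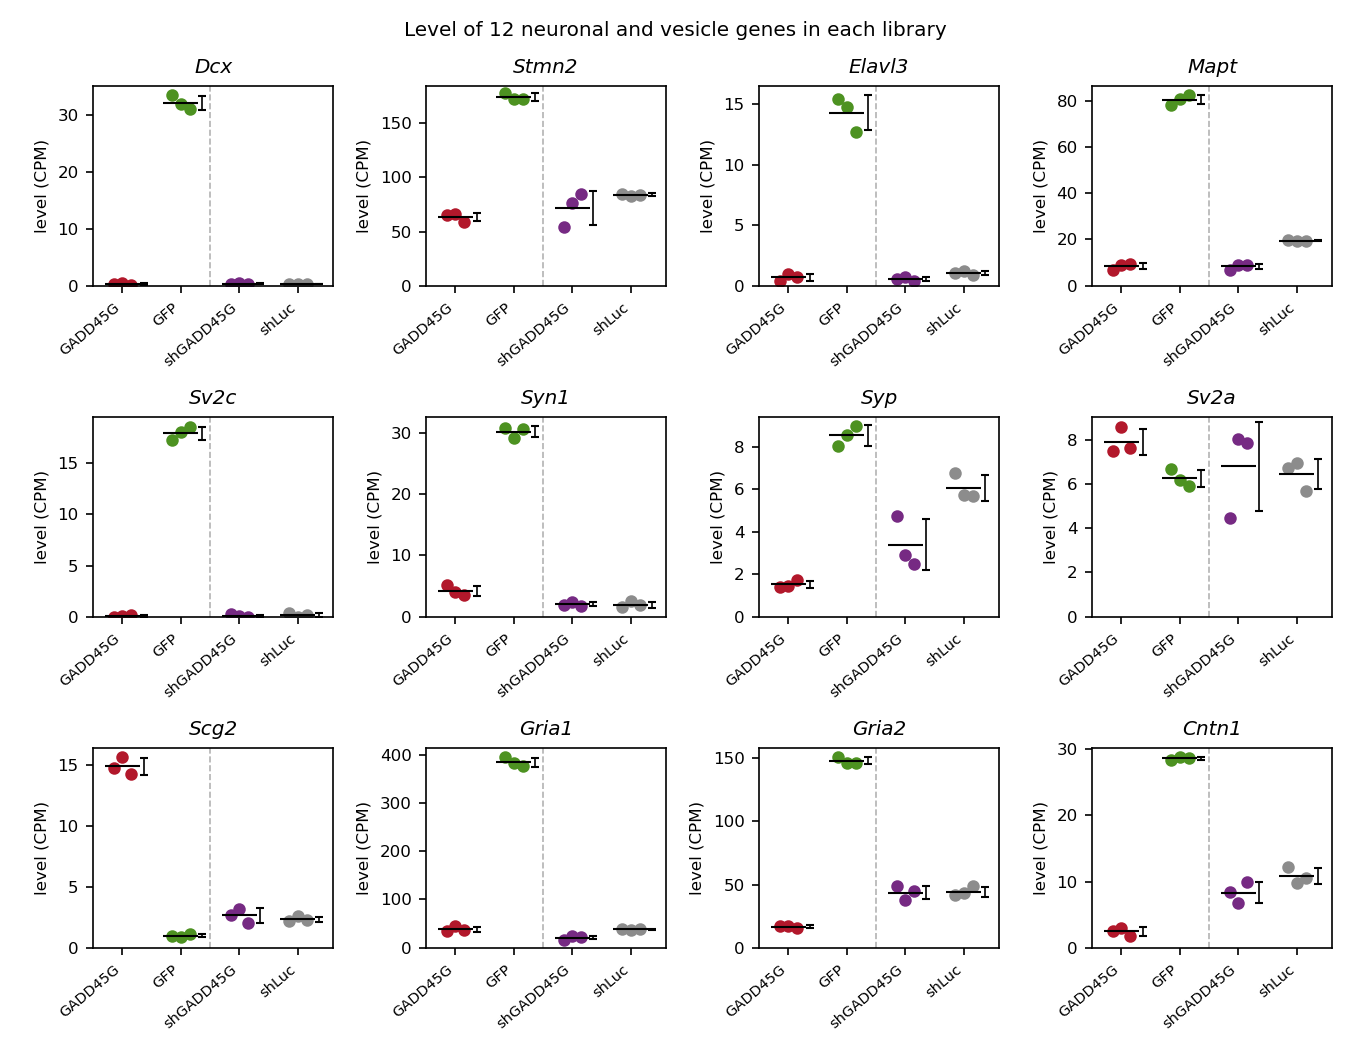
CPM (y axis, from 0, own scale per gene) of 12 members in each library of GADD45G, GFP, shGADD45G and shLuc; points are libraries, lines group means, bars ± 1 SD (n = 3), and a dashed line divides the separately deposited tables. Most panels show the GFP points far above all others, as in Dcx (30.9 to 33.4 CPM), whereas Scg2 shows the GADD45G points on top (14.2 to 15.6 CPM) and Sv2a shows no high GFP group.

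The dense-core vesicle genes went apart in GADD45G libraries. Scg2, the granin secretogranin II that is packed into dense-core vesicles and cut to secretoneurin (ENSMUSG00000050711, mm10 chr1:79434669-79440120, minus strand), had 14.7, 15.6 and 14.2 CPM in GADD45G libraries, against 0.921, 0.861 and 1.12 CPM in GFP libraries. Every GADD45G library was far above every GFP library, with a log2 fold change of 3.93 ± 0.159 (SE, adjusted p = 3.64e-09). Chga, the related granin chromogranin A, had 1.06, 1.14 and 0.388 CPM in GADD45G libraries, against 1.89, 1.91 and 1.86 CPM in GFP libraries (-1.12 ± 0.374 SE, adjusted p = 0.0232). The Chga call was lost without replicate 1, 2 or 3 of GFP (adjusted p = 0.0604, 0.064 and 0.0584), with DESeq2 (0.0563) and without the count filter (0.0551). Uchl1, the abundant ubiquitin hydrolase of neurons, had 168, 155 and 142 CPM in GADD45G libraries, against 264, 274 and 270 CPM in GFP libraries (-0.80 ± 0.061 SE, adjusted p = 7.14e-07).

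In the knockdown experiment Scg2 had 2.69, 3.19 and 2.03 CPM in shGADD45G libraries and 2.16, 2.57 and 2.29 CPM in shLuc libraries, which overlapped (0.18 ± 0.254 SE, adjusted p = 0.716). Uchl1 had 123, 114 and 116 CPM in shGADD45G libraries and 131, 132 and 121 CPM in shLuc libraries (-0.13 ± 0.077 SE, adjusted p = 0.348). Chga was higher in each shGADD45G library, at 0.538, 0.742 and 0.393 CPM, than in the shLuc libraries, at 0.185, 0.367 and 0.171 CPM, but with 29 against 13 counts it was not tested.

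Scg2 and Syn1, which went in opposite directions in GADD45G libraries, shared matches to 2 of the motifs searched near their RefSeq starts. The motifs were set singly and not as a pair, so the count of windows with both is a description. A link between the matches and the changes was not tested. A window of 250 bases before to 50 after the RefSeq start (GRCm38.p6) was available for 23 of the 32 members, in 40 windows. Both strands of each window were searched, and TTCAGCACC was found in 5.0% of member windows (Scg2 and Syn1), against 0.371% of all 32851 windows. TGACGTCA was found in the same 2 members, 5.0% of member windows, against 1.79% of all windows. Of all windows, 3 held both (Scg2, Syn1 and Trim26). In Scg2 the first match starts 7 bases before the start, as the reverse complement GGTGCTGAA, and its last bases run past it; it overlaps no part of TGACGTCA, which starts 68 bases before. Directly before it, 13 bases before the start, stands CTGTCC, the reverse complement of GGACAG, from the right arm of the REST element. Scg2 thus holds both searched strings with no base between them. GGACAG was not found in the Syn1 window, where TTCAGCACC is followed by gcggtcag. The spacing of the arms and near matches were not searched, so neither gene is shown to hold, or to lack, the full element. In Syn1 the matches start 232 and 159 bases before the RefSeq start. Both Scg2 sites lie inside the gene span given by the authors (mm10 chr1:79434669-79440120), whereas the Syn1 matches lie before the Syn1 span. The Scg2 sites are shown because this member alone was called higher; both are on the minus strand of GRCm38.p6 (chr1:79440014-79440043 and chr1:79440076-79440105, RefSeq), with the matches in capitals.
Scg2 site with CTGTCC and GGTGCTGAA: ggagCTGTCCGGTGCTGAAacggcccgagc
Scg2 site with TGACGTCA: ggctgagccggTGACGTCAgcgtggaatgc

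The other motifs searched were near their share of all windows, or came with small numbers. CAGATG, an E-box, was in 17.5% of member windows and 17.2% of all windows, and GGACAG, the right arm of the REST element, in 22.5% and 22.2%. CAGCTG, another E-box, was in 27.5% of member windows (Chga, Elavl2, Elavl3, Elavl4, Htr5a, Stx1a, Sv2a and Syt1), against 16.3% of all windows. TATAAA was in 17.5% of member windows (Chga, Cntn1, Dcx, Elavl3 and Sv2b), against 13.6%. A match describes the letters only, and the windows of 1 gene overlap.

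The receptor and adhesion members had the lowest median log2 fold change of the 6 role groups in GADD45G libraries, -3.24. In this role 5 of 6 were lower, against 29.7% of all genes tested. Htr5a, a serotonin receptor (ENSMUSG00000039106, mm10 chr5:27842149-27855088, plus strand), had no count in any GADD45G library, against 7.52, 6.55 and 5.23 CPM in GFP libraries. With 391 counts in GFP libraries, taken as exact, the ratio was 116-fold with the empty group set to 3 counts in all. The adjusted p was 3.76e-07 (edgeR's quasi-likelihood test). That ratio was 76.9-fold without replicate 2 of GADD45G, 77.6-fold without replicate 3 and 77.9-fold without replicate 1. Gria1, which encodes the GluA1 subunit of AMPA glutamate receptors (ENSMUSG00000020524, mm10 chr11:57011387-57330244, plus strand), had 34.9, 44.3 and 36.2 CPM in GADD45G libraries, against 395, 383 and 376 CPM in GFP libraries (-3.32 ± 0.081 SE, adjusted p = 7.3e-11). Gria2, the GluA2 subunit that sets calcium permeability, had 16.8, 17.4 and 15.5 CPM in GADD45G libraries, against 151, 146 and 147 CPM in GFP libraries (-3.16 ± 0.057 SE, adjusted p = 9.01e-12). The receptor genes Gria1 and Gria2 thus fell by like amounts and without overlap.

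Cntn1, the GPI-anchored adhesion molecule contactin 1, had 2.57, 3.00 and 1.77 CPM in GADD45G libraries, against 28.4, 28.8 and 28.7 CPM in GFP libraries (-3.55 ± 0.142 SE, adjusted p = 3.24e-09). Ncam1, the neural cell adhesion molecule, had 80.2, 74.1 and 71.2 CPM in GADD45G libraries, against 228, 208 and 209 CPM in GFP libraries (-1.52 ± 0.060 SE, adjusted p = 2.83e-09). L1cam, an axonal adhesion molecule, had 0.335, 1.20 and 0.998 CPM in GADD45G libraries and 0.819, 1.20 and 0.977 CPM in GFP libraries, which overlapped (-0.24 ± 0.442 SE, adjusted p = 0.666). The knockdown experiment separated the AMPA subunits. Gria1 had 16.6, 24.5 and 21.5 CPM in shGADD45G libraries, against 38.0, 37.4 and 37.9 CPM in shLuc libraries (-0.86 ± 0.136 SE, adjusted p = 0.00391). Gria2 had 48.4, 37.6 and 44.8 CPM in shGADD45G libraries and 41.4, 43.1 and 48.9 CPM in shLuc libraries, which overlapped (-0.03 ± 0.115 SE, adjusted p = 0.917). The difference between these subunits was not itself tested. Cntn1 had 8.40, 6.73 and 9.89 CPM in shGADD45G libraries and 12.2, 9.76 and 10.6 CPM in shLuc libraries (-0.38 ± 0.174 SE, adjusted p = 0.208), and Ncam1 had 104, 112 and 104 CPM in shGADD45G libraries and 103, 104 and 111 CPM in shLuc libraries, with an adjusted p of 0.975. L1cam had 22 counts in shGADD45G and 4 in shLuc libraries and was under the filter.

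Both tables were next scaled together, over the genes they share, to set the 4 groups side by side. Of the 30 members listed in both, 25 had all 3 GFP libraries above the other 9, including 24 of the 29 in the joint test, against 19.1% of the 15900 genes in that test. Dcx, Elavl4, Sv2b and Sv2c had under 10 counts in each of the other 9 libraries. They passed the count filter through the GFP libraries alone, so their high GFP place here and in the counts below is tied to that filter. The exceptions were Gap43, Map2, Sv2a, L1cam and Scg2, and for Scg2 the GFP libraries lay below the other 9. The GFP group had the highest mean for 26 members, GADD45G for 2 (Sv2a and Scg2) and shLuc for 2 (Gap43 and Map2). The controls themselves were apart: shLuc libraries lay wholly below GFP libraries for 26 members, overlapped for 3 (Gap43, Map2 and Sv2a) and lay above for Scg2, against 34.6% of all genes in the joint test below and 34.2% above. The tables were deposited separately, and experiment and control vector cannot be told apart here. GADD45G libraries lay above shLuc libraries for 9 members, below for 12 and overlapped for 9, against 28.2% of all genes above and 27.2% below. On this joint scale Gria2 had 16.6, 17.2 and 15.4 CPM in GADD45G libraries and 48.7, 37.9 and 44.9 CPM in shGADD45G libraries, against 41.8, 43.4 and 49.3 CPM in shLuc and 151, 146 and 146 CPM in GFP libraries.

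**Figure D3:**
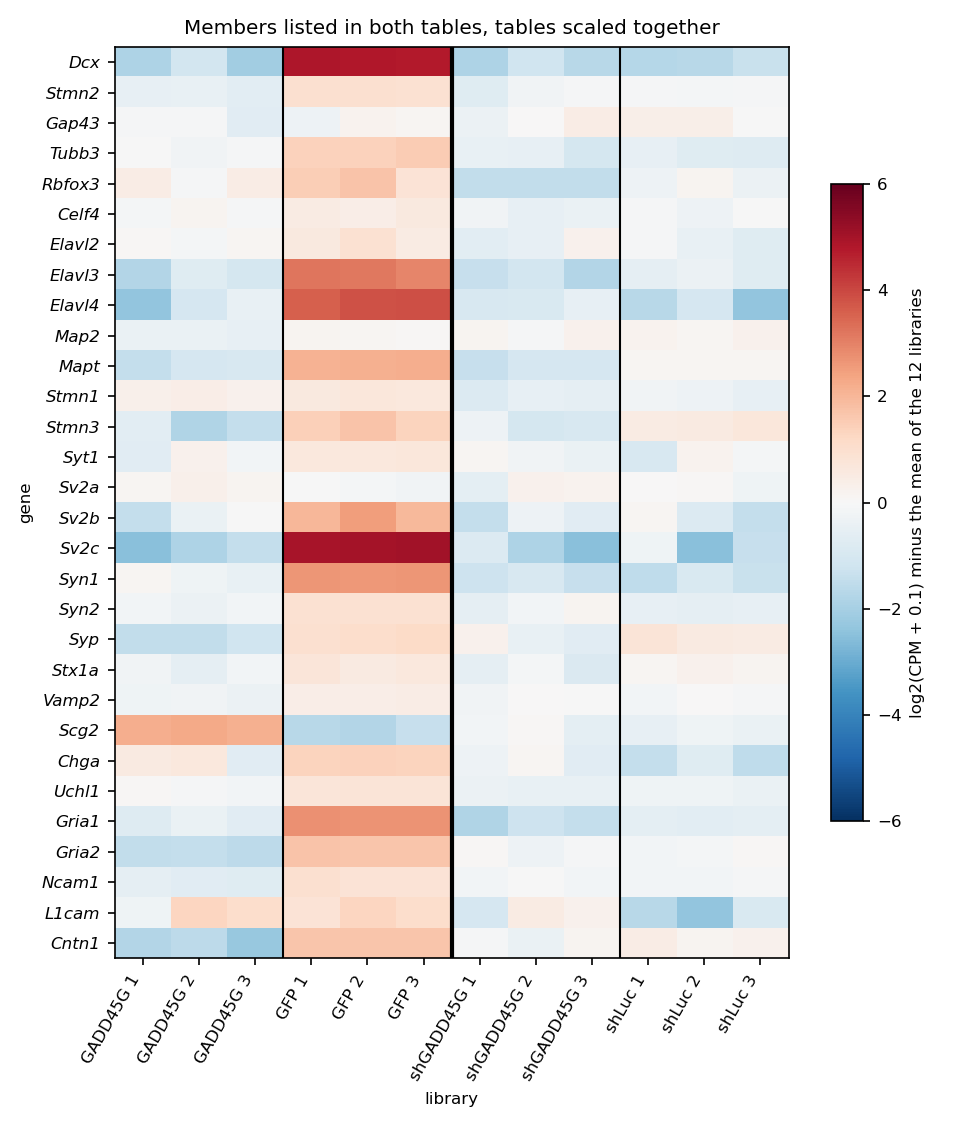
Each cell is the log2(CPM + 0.1) of a member (rows, 30 listed in both tables) in a library (columns) minus the mean of the 12 libraries, with the tables scaled together; red is above and blue below that mean. The 3 GFP columns are the red ones for most rows, with Scg2, which is red in GADD45G, as the clearest exception.

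The effects of the experiments were compared as the log2 fold change of GADD45G against GFP minus that of shGADD45G against shLuc, with edgeR's quasi-likelihood test on all 12 libraries. Of 29 members in this fit, 20 had a lower and 1 (Scg2) a higher effect in the overexpression experiment, against 20.7% lower and 20.2% higher over all 15900 genes. The median was -1.53 for the members and 0 for all genes. Dcx, Elavl4, Sv2b, Sv2c, Chga and L1cam had too few counts to be tested in the knockdown experiment alone. They entered this fit mainly through the overexpression libraries, and all but Sv2b are among the 20. That count is therefore partly tied to the count filter. Dcx differed by -6.87, Gria2 by -3.14, Syn1 by -2.90 and Scg2 by 3.75. Members that fell in both experiments still differed, with Mapt at -2.02, Gria1 at -2.47 and Stmn3 at -1.45. The 8 members without a call were Gap43, Celf4, Elavl2, Stmn1, Syt1, Sv2a, Sv2b and Stx1a, with differences from -3.16 for Sv2b (adjusted p = 0.131) to 0.26 for Sv2a (adjusted p = 0.494).

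Levels between genes were read from the deposited FPKM values, which are scaled by length. Uchl1 was the highest member in both groups of the overexpression experiment, at a level of 93.3 ± 7.99 FPKM in GADD45G and 163 ± 3.08 FPKM in GFP libraries (SD, n = 3 each), and Vamp2 was next, at 45 ± 2.38 FPKM in GADD45G and 73.2 ± 0.527 FPKM in GFP libraries. The third in GFP libraries was Gria1, at 63.1 ± 1.61 FPKM, whereas in GADD45G libraries it was Stmn1, at 25.5 FPKM. Dcx and Sv2c, which had large falls in CPM, were of low abundance even in GFP libraries, at 2.51 ± 0.0989 FPKM and 1.84 ± 0.0631 FPKM. Several vesicle genes lay lower still, with Snap25 at 0.363 ± 0.0945 FPKM and Syt1 at 0.316 ± 0.00763 FPKM in GFP libraries, and Rbfox3 was the lowest member there at 0.106 ± 0.0366 FPKM.

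Further lists that hold none of the members were read for comparison. They cover other neuronal genes, among them neurogenic factors, and the repressor REST with its corepressors. These lists too were chosen with earlier results of these data known. Of all genes tested, 29.7% were lower and 30.6% higher in GADD45G libraries. Of 25 other presynaptic genes tested, 15 were lower and 4 higher in GADD45G libraries (median log2 fold change -1.10), among them Snap91, an endocytic adaptor (-1.91), and the synaptogyrin genes Syngr1 (-1.48) and Syngr3 (-1.76). Neurogenic factors and interneuron genes were lower in 11 of 12 and higher in 1 (median -3.85). Among those lower, Eomes, Dlx5 and Gad2 had 1 count each over the GADD45G libraries, Myt1 had 2 and Myt1l had 5. These genes passed the count filter through the GFP libraries alone, so their calls are tied to that filter. Dlx1, a transcription factor of interneuron progenitors, had 3.72 ± 0.607 CPM in GADD45G and 34.7 ± 0.461 CPM in GFP libraries (SD, n = 3 each; log2 fold change -3.22, adjusted p = 8.1e-10). Of 13 other cytoskeletal genes 9 were lower and 2 higher (median -0.51), or 4 higher without replicate 3 of GADD45G. They included Dpysl3, an axon guidance phosphoprotein, at -2.70, and Dclk1, a doublecortin-like kinase also found in glia, at 1.11. Receptors and channels were lower in 10 of 13 and higher in 1 (median -1.13), with Gabra2, a GABA-A receptor subunit, at -3.67. In these other lists Slc32a1 (0 counts over the GADD45G libraries), Cplx1 (5), Stmn4 (7) and Grin2a (6) also passed the filter through the GFP libraries alone. The counts and medians of the lists are therefore partly tied to that filter.

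Of the dense-core list, 3 of 8 were lower and 3 higher (median -0.02), against 29.7% lower and 30.6% higher of all genes tested (median 0.01). This split was near that of all genes. Scg3, a granin-binding sorting protein, fell by 1.07 on the log2 scale, and Npy, a peptide cargo, had 17.4 ± 2.89 CPM in GADD45G and 3.11 ± 0.212 CPM in GFP libraries (SD, n = 3 each; log2 fold change 2.48). Rest, the repressor of many neuronal genes, had 53.6 ± 0.491 CPM in GADD45G and 51.4 ± 1.53 CPM in GFP libraries (0.06 ± 0.045 SE, adjusted p = 0.275). It had 51.9 ± 2.56 CPM in shGADD45G and 43.5 ± 3.36 CPM in shLuc libraries (0.26 ± 0.093 SE, adjusted p = 0.114). With its corepressors, 5 of 8 were lower and 1 higher in GADD45G libraries (median -0.27), or 4 lower with any 1 of the 6 libraries left out and 0 higher without replicate 2 of GADD45G or replicate 2 or 3 of GFP, with Rcor2 at -1.12 and Hdac1 at -0.42. Of all genes tested under knockdown, 5.15% were higher and 5.27% lower. In that experiment 0 higher and 1 lower of 22 presynaptic, 0 and 1 of 7 neurogenic, 1 and 2 of 11 cytoskeletal, 2 and 1 of 10 receptor, 0 and 3 of 7 dense-core and 0 and 0 of 8 REST list genes were called. These small counts changed with single libraries: without replicate 1, 2 or 3 of shLuc no presynaptic, cytoskeletal or dense-core gene was called lower, and without replicate 1 or 2 of shLuc no neurogenic gene was. Without replicate 1 of shGADD45G, 3 presynaptic genes were lower and 1 higher, and without replicate 2 of shGADD45G the counts were 0 presynaptic, 2 neurogenic and 1 cytoskeletal gene lower and 1 receptor gene higher.

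**Figure D4:**
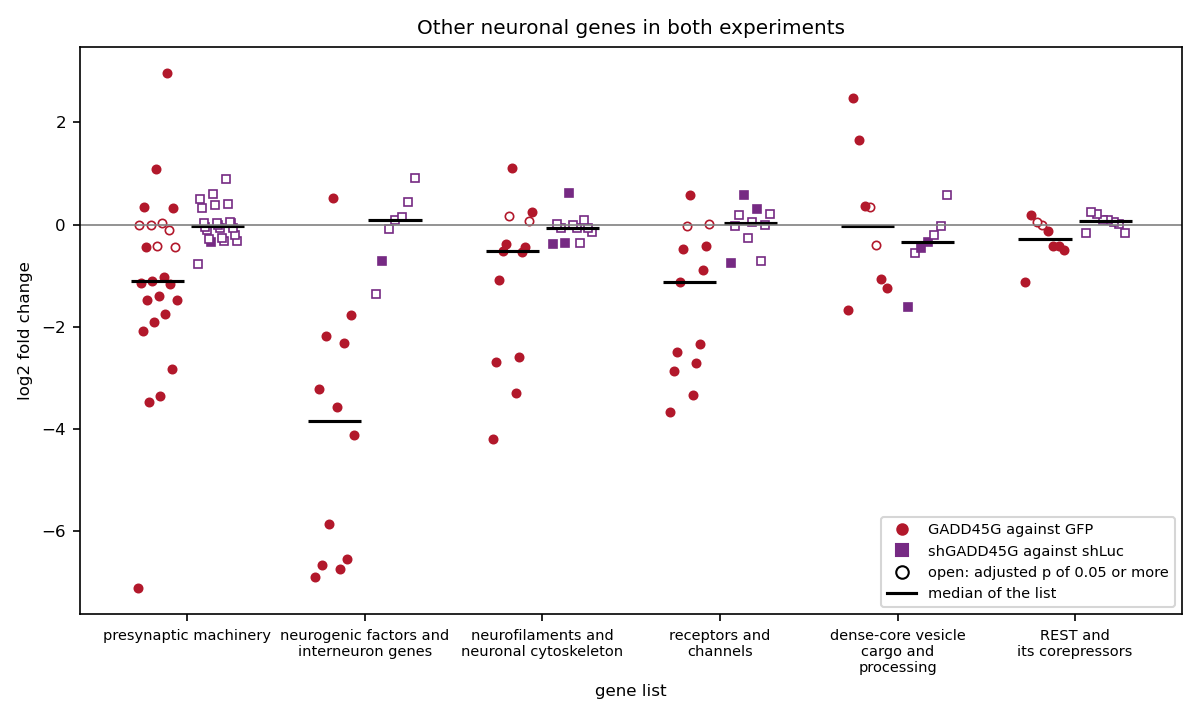
Log2 fold change (y axis) of each tested gene in 6 further lists, for GADD45G against GFP (circles, left) and shGADD45G against shLuc (squares, right); open symbols had an adjusted p of 0.05 or more and black bars are medians. The circles of the neurogenic list have the lowest median, -3.85, and the knockdown medians lie between -0.35 and 0.09. Some of the lowest circles are genes near 0 counts in GADD45G libraries, which passed the count filter through the GFP libraries alone.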

How the data were processed

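RNA from 12 libraries was sequenced. The submitters' processing notes name STAR 2.5, HTSeq 0.6.1, DESeq2 and mm10, and whether counting used strand was not given in the sources used here. Per the file headers, the authors deposited 1 table per experiment with read counts per gene, which were analysed here. The deposited signal columns are counts divided by a size factor and the deposited FPKM values are scaled by the authors for length and total; FPKM was used only for levels between genes. The log2 fold changes and p-values deposited by the authors were not used. Columns named shCtrl were taken as shLuc, and G45g as GADD45G, by name and replicate number. There were 0 columns of other samples.

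Each experiment was fitted on its 6 libraries with edgeR 4.0.16 in R 4.3.3 (filterByExpr with a minimum count of 10, TMM, quasi-likelihood F test, Benjamini-Hochberg over all genes tested, called under 0.05). A fit of 12 libraries gave the difference of effects. CPM used TMM factors. A group with 0 counts was set to a floor of 3 counts, with the other group's counts taken as exact and no interval. Groups with 1 to 3 counts were given a ratio with its 95% exact interval. Alternatives were RLE factors, DESeq2 1.42.0, no filter, the replicate block, all 12 libraries in one fit and leaving out each library. Up to 4 genes per further list, those with the smallest p in the overexpression experiment, were eligible to be named, besides Rest and all members; some were left out for length, and others are not reported here. Genes of these lists with few counts in GADD45G libraries were named for their counts only. The remaining lists and the neuroendocrine lung and blood genes were read as sums. The fit was tested on simulated data with 200 changed genes. Members and lists were chosen with earlier results of these data known. Promoters came from RefSeq GRCm38.p6.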

Additional observations from a re-analysis of the deposited data

Results flagged for a closer look

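For 21 members the effect of GADD45G against GFP differed from that of shGADD45G against shLuc by a test of the difference itself, and each is given here as the first log2 fold change minus the second. Among immature neuron genes the difference was -6.87 for Dcx, -1.23 for Stmn2 and -1.56 for Tubb3. It was -3.43 for Elavl3 and -6.79 for Elavl4, the RNA-binding proteins, and -0.47 for Map2, -2.02 for Mapt and -1.45 for Stmn3 in the cytoskeleton. The vesicle genes differed by -7.56 for Sv2c, -2.9 for Syn1, -1.49 for Syn2, -1.67 for Syp and -0.7 for Vamp2. Scg2 differed by 3.75, Chga by -2.3 and Uchl1 by -0.68. For receptors and adhesion genes the values were -2.47 for Gria1, -3.14 for Gria2, -1.53 for Ncam1, -2.65 for L1cam and -3.17 for Cntn1. Values for Dcx, Elavl4, Sv2c, Chga and L1cam rest on few counts in the knockdown experiment. The Sv2c call was lost without replicate 1 of shGADD45G (-6.09, adjusted p = 0.0868). Its value was -8.42 without replicate 3 of GADD45G, -8.93 without replicate 1 of shLuc and -6.93 without replicate 2 of shLuc. That of Elavl4 was -7.57 without replicate 3 of GADD45G and -7.95 without replicate 2 of shLuc. The L1cam call (adjusted p = 0.0478) was lost without the count filter (0.063) and without 8 of the 12 libraries in turn, where its adjusted p ran up to 0.125; its value was -2.05 without replicate 2 and -3.88 without replicate 3 of shLuc.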

How the results depend on the processing

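Members called lower in GADD45G numbered 24 to 27 with each library left out, and 1 or 2 were called higher. In shGADD45G 2 to 4 were lower and 0 to 1 higher. All genes called in the knockdown experiment ran from 301 to 1368 lower and from 230 to 1367 higher, against 786 and 768 with all libraries. The high ends came without replicate 1 of shGADD45G, and counts of 301 to 340 lower and 230 to 277 higher came without replicate 1, 2 or 3 of shLuc. They were 1321 lower and 1349 higher with all 12 libraries in one fit, where the spread is shared by more libraries. With each library left out, members not called changed sign: L1cam in the overexpression experiment (log2 fold change -0.58 to 0.14), and in the knockdown experiment Gap43 (-0.37 to 0.04), Tubb3 (-0.06 to 0.20), Elavl2 (-0.16 to 0.36), Map2 (-0.15 to 0.01), Syt1 (-0.21 to 0.37), Sv2a (-0.07 to 0.31), Syn1 (-0.08 to 0.27), Vamp2 (-0.05 to 0.07), Gria2 (-0.11 to 0.07) and Ncam1 (-0.03 to 0.04). In the difference of effects they were Gap43 (-0.32 to 0.10) and Stmn1 (-0.12 to 0.06). The cause was not tested. RLE factors changed no member's call. DESeq2 called 24 members lower in GADD45G and 4 in shGADD45G, with 4192 and 952 lower over all genes. With the replicate number as a block, 26 members were lower in GADD45G and 4 in shGADD45G, with Elavl2 lost and Syp gained, and 20 lower and 1 higher in the difference of effects; deviations of same-numbered libraries correlated at -0.02 to 0.08, so the numbers were not taken to pair the samples. The single gene called higher in the REST list, Sin3a, named after its values were seen, was lost with DESeq2, without the filter and with all 12 libraries in one fit. Depth limited Rbfox3, Snap25, Htr5a, Sv2b, Sv2c, Elavl3, Elavl4, Dcx, Chga and L1cam, which had few counts in at least 1 group.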
